A study of Drosophila melanogaster with 3 samples.

Results

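The 9 genes described here encode actins, tubulins and their direct partners that most fly cells use: Act5C, Act42A, alphaTub84B, betaTub56D, chic, tsr, sqh, zip and Moe. They were chosen as a named list, without a cutoff on a measured value but with earlier results of these data known, and make up 9 of the 13945 protein-coding genes on the 6 major chromosome arms. All 9 were found in the annotation under these symbols. Of the 9, 8 carried a peak of CG6765-eGFP from the authors' thresholded list within 500 bp of a start site. Act42A had only a weaker candidate there.

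The data were peak lists from ChIP-seq, which sequences the DNA recovered with an antibody, for 3 biological replicates that form 1 group. Each replicate was whole Drosophila melanogaster embryos of mixed sex, aged 0 to 24 h, from the strain CG6765-GFP, a transgenic line stably expressing CG6765 with GFP at its C terminus. The labels describe an immunoprecipitation against GFP but list CG6765 as the antibody. The promoter that drives the transgene is not given in the sources used here, and a whole-embryo pool does not show in which cells a region was bound. There is no comparison group among the samples, so the values below are descriptions of positions and strengths and carry no test. A signal is the authors' own value per peak, of no stated unit, and orders peaks only within 1 list. The pooled list and each replicate list held 30000 candidates, background included, and the 3816 pooled candidates of highest signal made up the authors' thresholded list. Rank 1 is the strongest candidate. The read depth behind these lists is unknown.

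Actin filaments and microtubules are polymers that are built and taken apart continually, and they give embryonic cells their shape, their cortex and their mitotic spindles. Act5C and Act42A encode the cytoplasmic actins, and alphaTub84B and betaTub56D encode broadly used subunits of the tubulin dimer. Profilin, the product of chic, delivers actin monomers to growing filaments, whereas cofilin, the product of tsr, severs and disassembles them. The genes zip and sqh encode the heavy chain and the regulatory light chain of non-muscle myosin II, the motor that contracts actin networks. Moe encodes Moesin, the fly protein of the ezrin, radixin and moesin (ERM) family, which ties cortical actin to the plasma membrane.

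The sequences at the summits on arms X, 3R and 2L differed widely in base composition, and runs of DNA at or near some of these summits are shown. Each run has 101 bases of dm6, 5′ to 3′ on the strand of the gene, read from the RefSeq copy of the Release 6 genome. Capitals mark the words TATAAA and GAGAG, searched on both strands, so that they also appear as TTTATA and CTCTC. Windows were centred on the summit, or moved to the nearest position with at most 30 bases of annotated UTR.
Act5C, upstream start summit, chrX:5900407-5900507, plus strand: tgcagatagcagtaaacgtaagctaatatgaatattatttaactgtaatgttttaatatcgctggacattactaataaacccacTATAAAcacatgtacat
Act5C, inner start summit, chrX:5901846-5901946, plus strand: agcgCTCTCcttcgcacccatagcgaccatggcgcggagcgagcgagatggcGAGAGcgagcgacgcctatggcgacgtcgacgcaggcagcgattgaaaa
alphaTub84B, start summit, chr3R:7086528-7086628, plus strand: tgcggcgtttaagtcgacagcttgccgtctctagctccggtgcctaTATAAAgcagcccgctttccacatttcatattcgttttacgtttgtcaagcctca
chic, strongest start summit, chr2L:5980072-5980172, minus strand: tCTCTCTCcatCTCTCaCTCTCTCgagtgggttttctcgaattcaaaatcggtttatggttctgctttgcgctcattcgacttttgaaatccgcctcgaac
chic, strongest intron summit, chr2L:5974349-5974449, minus strand: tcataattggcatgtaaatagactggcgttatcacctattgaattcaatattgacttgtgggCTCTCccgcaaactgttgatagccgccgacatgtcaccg
sqh, start summit, chrX:6224491-6224591, minus strand: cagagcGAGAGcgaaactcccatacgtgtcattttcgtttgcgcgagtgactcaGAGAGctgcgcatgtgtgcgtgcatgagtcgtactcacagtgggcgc
Moe, strongest start summit, chrX:8879102-8879202, minus strand: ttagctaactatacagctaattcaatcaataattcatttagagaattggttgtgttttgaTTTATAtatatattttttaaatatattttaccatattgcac
Moe, intron summit, chrX:8896220-8896320, minus strand: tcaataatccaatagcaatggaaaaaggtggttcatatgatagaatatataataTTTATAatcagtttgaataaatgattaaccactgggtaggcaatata

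In these runs the summit is base 51, except in 3 windows that were moved. The summit is base 85 in the chic start window, where base 72 is the start site. In the alphaTub84B and sqh windows the start site is also base 72, and the summit lies past the end of the run, at positions 125 and 109 counted from its first base. The words marked for alphaTub84B, chic and sqh therefore do not lie wholly within 50 bp of the summit, and a GAGAG nearer to the alphaTub84B summit is not in its run. Within 50 bp, the chic and sqh start summits held neither word. Nor did the thresholded member summits on these arms that are not printed. These are the weaker chic intron summit, the outermost chic start summit and the Moe summit of signal 188. The TATAAA of alphaTub84B covers the bases 25 to 20 before its start site. The TATAAA of the upstream Act5C summit ends 365 bp before the start of Act5C, and the match of the Moe start summit lies in an AT-rich run 417 to 412 bp before the nearest Moe start. At chic the CTCTC runs cover bases 70 to 48 before the start site. At sqh a GAGAG covers bases 17 to 13 before it. GC content was 28.7% at the upstream Act5C summit and 64.4% at the inner one, and it was 20.8% and 26.7% at the start and intron summits of Moe.

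**Figure D1:**
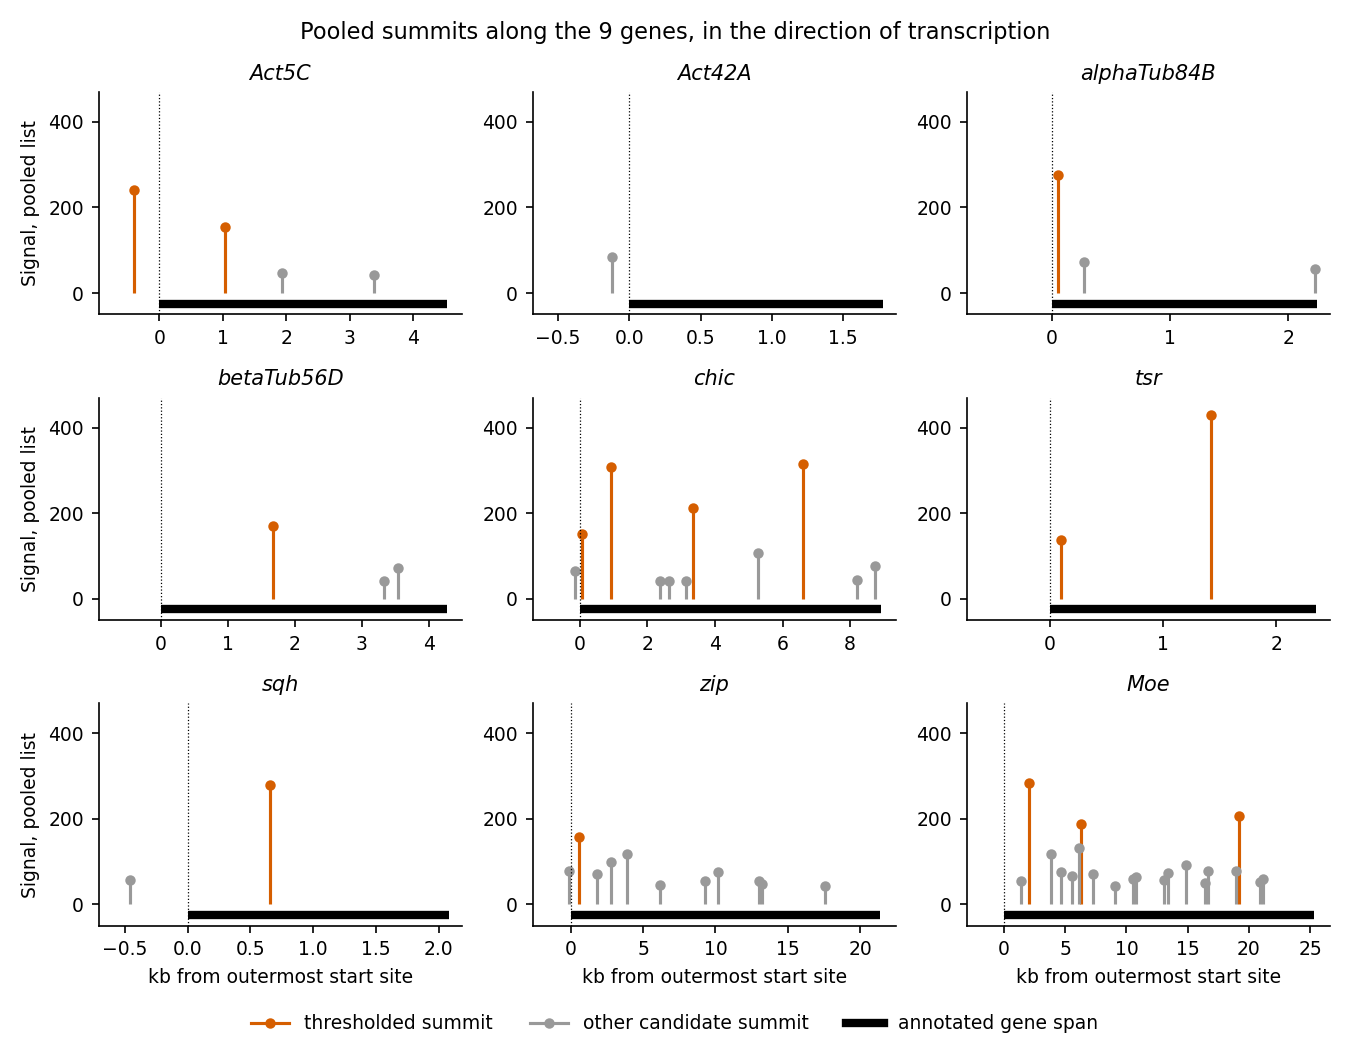
Pooled candidate summits along each of the 9 genes, by distance in kb from the outermost annotated start site in the direction of transcription (x axis) and by the authors' signal (y axis). Orange stems are thresholded summits and grey stems other candidates, and the black bar is the annotated gene. Act42A has a single grey stem of signal 83.5, and the tallest stem, 430, stands 1425 bp inside tsr.

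The start sites of these genes carried thresholded peaks in 8 of 9 cases, while 17.0% of all protein-coding genes (2370 of 13945) did. The number of annotated start sites differs between genes. Among genes with 1 start site, 2 of 3 members (alphaTub84B and tsr, not Act42A) had such a peak, where 11.8% of all such genes did. Among genes with 2 or more, all 6 members had one, where the share over all such genes was 31.5%. With only the outermost start site of each gene, 4 members (Act5C, alphaTub84B, chic and tsr) were left and 14.7% of all genes. All 9 members, and 49.3% of protein-coding genes, had a pooled candidate, thresholded or not, at that distance. The signals of these peaks were moderate. The 8 members ran from 138 to 309 with a median of 224, while all 2370 genes ran from 135 to 2218 with a median of 207. Of the 2370, 26.1% had a higher signal than chic, the strongest member. CG6765 itself had a start summit of signal 391.

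Act5C (FBgn0000042; X, 5900861 to 5905399, plus strand) has 2 annotated start sites and had a thresholded summit near each. The stronger, with signal 241 and pooled rank 1240, lay 404 bp upstream of the outer start (peak 5900229 to 5900684). Replicates 1, 2 and 3 ranked the matching summit, at most 100 bp away, 3020, 2971 and 1052, so all 3 replicates held it among their 3816 strongest. The start site of lncRNA:CR45668 also lay within 500 bp. A further thresholded summit of signal 289 stood 621 bp upstream of Act5C, within 500 bp of lncRNA:CR45668 only. Its peak (5900012 to 5900467) overlapped the peak of signal 241. The farther summit ranked 727 and 775 in replicates 1 and 2, above the nearer one there. Replicate 3 had no summit within 100 bp of it. The inner start of Act5C had a summit of signal 155 at 86 bp upstream (rank 2909), matched at ranks 2745 and 2999 in replicates 1 and 3. Replicate 2 had none within 100 bp, and its best-ranked summit within 500 bp was 109 bp away and ranked 5619.

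Act42A (FBgn0000043; 2R, 6013910 to 6015689, minus strand), the other cytoplasmic actin gene, was the member without a thresholded peak. Its only candidate, 118 bp upstream of its single start site, had a signal of 83.5 and ranked 8739 in the pooled list. The replicates were split on it. Replicate 3 ranked it 2570, replicate 2 ranked it 22457, and replicate 1 listed no summit within 500 bp of the start site. No candidate lay inside the gene.

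alphaTub84B (FBgn0003884; 3R, 7086599 to 7088839, plus strand) had the most even start-site peak of the tubulin members. Its summit lay 53 bp downstream of the only start site, with signal 277 and rank 948 (peak 7086424 to 7086879). The replicates ranked it 711, 1263 and 1668, all well inside their 3816 strongest. A weaker candidate 268 bp downstream of the start (signal 71.6) was matched in replicate 1 alone, at rank 1732.

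betaTub56D (FBgn0284243; 2R, 19447319 to 19451600, minus strand) had its thresholded summit at the inner of its 2 start sites. It lay 318 bp upstream of that site, inside the longer transcript, with signal 169 and rank 2456 (peak 19449689 to 19450144). Replicates 2 and 3 ranked it 1822 and 1769, and replicate 1 ranked it 25077. A stronger summit of replicate 1 stood 286 bp away at rank 1073, 32 bp from a start site. All replicates thus held a strong summit at the inner start, but not at the same place. The outer start had no candidate within 500 bp. This was the member that lost its peak when the distance was 250 bp.

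chic (FBgn0000308; 2L, 5972115 to 5981018, minus strand) had the start-site peak of highest signal among the 9, and with 4 thresholded summits the most. The strongest start summit lay 13 bp downstream of the innermost of 3 start sites, with signal 309 and rank 758 (peak 5979860 to 5980315). It ranked 463, 1918 and 451 in the replicates. The outermost start had a summit of signal 151 at 75 bp downstream, ranked 3260, 3334 and 5895. The other pair of thresholded summits lay in introns. One was a narrow peak of 148 bp, 5702 bp downstream of the nearest start, with signal 315 (rank 730), above that at the start site, and it ranked 1264, 846 and 676. The other, 2441 bp downstream, had signal 212 and ranked 1127, 7831 and 1003. In the order of the 2370 genes, the start signal of chic was the 620th and stood between those of trio (signal 309, rank 757), and of RpL36 and Mybbp1A, which share 1 summit (signal 309, rank 761).

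**Figure D2:**
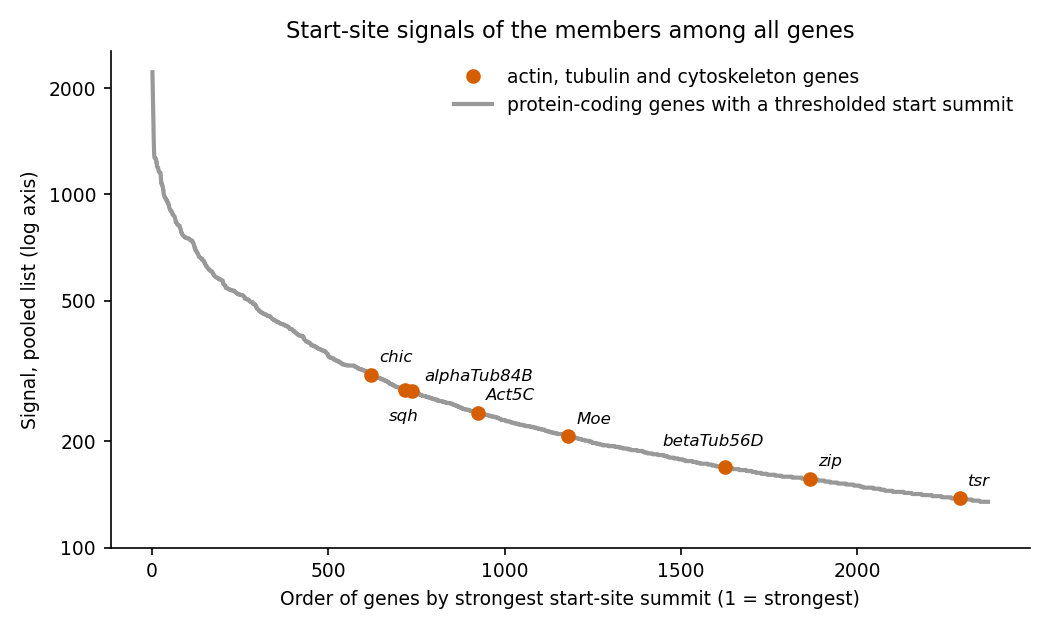
Signal of the strongest thresholded summit within 500 bp of a start site (y axis, log scale) for the 2370 protein-coding genes that have one, in order of signal (x axis). Orange points are the 8 members, from chic at place 620 to tsr at place 2290, spread over most of the order below the strongest genes.

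tsr (FBgn0011726; 2R, 24044453 to 24046805, minus strand) had the highest signal of any summit in these genes, but in its intron and not at its start. The intron summit lay 1425 bp downstream of the start, with signal 430 and rank 417 (peak 24045253 to 24045452, 200 bp wide). The replicates ranked it 420, 676 and 225. The start-site summit, 98 bp downstream, had signal 138 and rank 3667 and was thus the member summit just inside the threshold. Replicates 1 and 3 ranked it 1895 and 1430. In replicate 2 the best-ranked summit within 500 bp was 146 bp away at rank 4591. The gene IntS1 overlaps the annotated span of tsr, but neither summit lay within IntS1.

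sqh (FBgn0003514; X, 6223061 to 6225140, minus strand), which has 4 annotated start sites, had 1 thresholded summit, 37 bp downstream of an inner one. Its signal was 280 and its rank 926 (peak 6224255 to 6224710). Replicates 1 and 3 ranked it 834 and 1276. In replicate 2 the summit within 100 bp ranked 27826, but another at 121 bp ranked 995. All 3 replicates therefore held a strong summit at the same start region of the light chain gene. The outermost start had only a candidate of signal 56.7 upstream, which was also within 500 bp of dtn.

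zip (FBgn0287873; 2R, 24990570 to 25011965, minus strand), the heavy chain gene, had a start peak of lower signal than sqh. Its summit lay 35 bp downstream of the middle of 3 start sites, with signal 157 and rank 2837 (peak 25011200 to 25011655). The replicates ranked the matching summit 5441, 3291 and 13267, so replicate 2 alone held it among its 3816 strongest. A second summit of replicate 1, 150 bp away, ranked 1279. Another candidate 156 bp upstream of the outermost start (signal 77.2) was shared with uzip and ranked 3483 in replicate 3. The 21396 bp span of zip held 9 more candidates, all in introns and none thresholded, the strongest of signal 118.

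Moe (FBgn0011661; X, 8873012 to 8898332, minus strand), with 8 annotated start sites over 25321 bp, held 3 thresholded summits of 20 candidates. The strongest lay in an intron 1730 bp downstream of the nearest start, with signal 283 and rank 906 (peak 8896208 to 8896382, 175 bp wide). The replicates ranked it 1383, 921 and 1169. The strongest start-site summit, 427 bp upstream of one of the inner starts, had signal 207 and rank 1663, and ranked 1747, 2372 and 1894 in the replicates, each within 1 bp of the pooled position. The remaining thresholded summit, 211 bp upstream of another inner start, had signal 188 and ranked 3394 and 2067 in replicates 2 and 3. In replicate 1 the best-ranked summit within 500 bp was 153 bp away and ranked 1431. A candidate of signal 133 and rank 3888, 410 bp upstream of the same start, was the member summit just outside the threshold. None of the 3 thresholded summits lay within 500 bp of the outermost start.

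**Figure D3:**
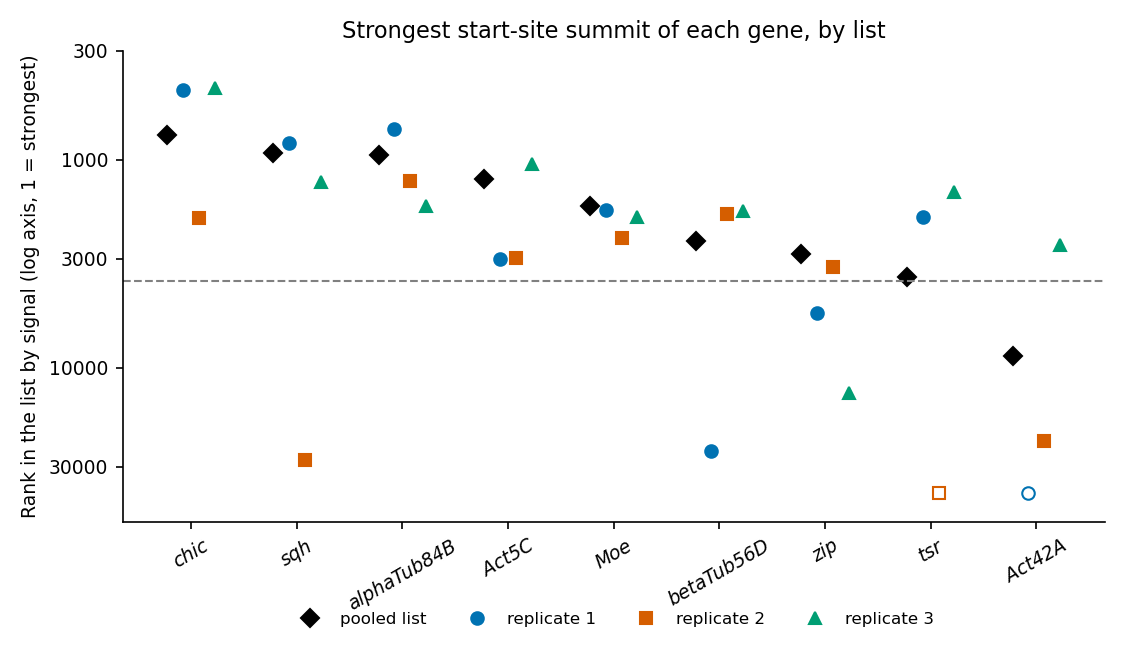
Rank by signal (y axis, log scale, strongest at the top) of the strongest start-site summit of each gene in the pooled list and of the best-ranked summit within 100 bp in each replicate. The dashed line is rank 3816. Open symbols at the bottom mark no summit within 100 bp, as in replicate 2 for tsr and replicate 1 for Act42A.

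By each replicate's own list, a start-site summit among the 3816 strongest was present for 8 of 9 members in replicate 1 (15.5% of all protein-coding genes), 7 of 9 in replicate 2 (17.0%) and 9 of 9 in replicate 3 (17.0%). The mean was 8 ± 1 members (SD, n = 3). Act42A was missing in replicates 1 and 2, and tsr in replicate 2. The pooled start summit was matched within 100 bp in all 3 replicates for 7 of the 9 members, where 38.3% of genes with a start candidate had such a match. It was matched among the 3816 strongest of each replicate for 4 (Act5C, alphaTub84B, chic and Moe), where the share was 15.6%. Thresholded peaks match more often in general. Against the 2370 genes with a thresholded start peak, 7 of 8 members were matched in all replicates where 77.6% were, and 4 of 8 among the strongest of each where 45.2% were. Read against that second background, these genes recurred between replicates about as often as other genes with a peak. The pooled list was made from the same replicates, so these matches are not independent of it.

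Inside the genes, 14 thresholded summits fell in 72.9 kb of annotated span, or 19.2 per 100 kb, where the merged spans of all protein-coding genes held 2.78 per 100 kb. Only 4 of the 14 lay in introns, so this density largely recounts the start-site peaks. It was not matched for gene length or number of start sites. At least 1 thresholded summit lay in 8 of 9 members, where 11.8% of protein-coding genes held one. At least 3 lay in chic and Moe, where 1.70% of genes did. Introns more than 500 bp from any start site held one in 3 of 9 (chic, tsr and Moe), where 5.59% of genes had one. With the upstream summit of Act5C, 15 thresholded summits belonged to the members, 11 of them at start sites (73.3%, where 62.1% of all thresholded summits outside intergenic space were) and 4 in introns. Summits within 500 bp of a start were counted there whatever feature they fell in, and none of the others lay in a coding exon or a UTR. Each of the 3 narrow intron peaks, in tsr, chic and Moe, exceeded the strongest start summit of its own gene in signal. Each also stood among the 3816 strongest of every replicate. At chic the signals were close (315 and 309), and the other intron summit of chic (212, rank 7831 in replicate 2) did neither. How often this holds over all genes was not counted. Of the 15, 12 were matched in all 3 replicates, where 77.3% of all thresholded summits outside intergenic space were. Of the 42 weaker candidates of these genes, 8 were matched in all 3 replicates and 5 in none, where 11.8% and 10.6% of all such candidates outside intergenic space were. Introns held 23 of the 42 (54.8%), where the share over all such candidates was 54.7%.

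Short words known from fly promoters were searched within 50 bp of the 9 strongest start summits. GAGAG, a core word of GAGA factor sites, was found at Act42A and alphaTub84B, and in 14.2% of all thresholded and 14.8% of other start-site summits. TATAAA was found at Act5C and Moe, and in 18.8% and 10.8% of these sets. A run of 8 A lay at zip (5.31% and 5.04%). The DRE word TATCGATA (2.45% and 1.93%), the E-box words CACGTG (1.25% and 1.51%) and CAGCTG (4.99% and 6.37%) and the Zelda word CAGGTAG (0.370% and 0.482%) were found at none of the 9. The count rested on the window. Within 100 bp, GAGAG was found at 6 of 9 members (28.6% of all thresholded start-site summits) and TATAAA at 4 of 9 (31.8%). The words may overlap within a window, and a match describes letters, not a bound site. Median GC content of these 101 bp windows was 38.6% in the members, with a range of 20.8% at Moe to 55.4% at sqh, and 38.6% over all 2164 thresholded start-site summits.

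Wider lists of cytoskeleton genes had start-site peaks in 30 of 108 genes (27.8%), where the 9 genes had 8 and all protein-coding genes gave 17.0%. That share differed by number of start sites, at 11.8% of all genes with 1 and 31.5% with 2 or more. The wider lists were not split by this number. Among the other actins 1 of 5 had a start-site peak, Arp53D (signal 147), which encodes an actin-related protein. Its summit was shared with the start of Sod2 and ranked 22139, 2199 and 2611 in the replicates. The muscle actin genes Act57B, Act79B and Act88F had no candidate within 500 bp of a start site, and Act87E had one of signal 84.7. Among the other tubulins 1 of 8 had a peak, gammaTub23C, which encodes a gamma-tubulin of microtubule nucleation (signal 305, replicate ranks 1608, 669 and 746, shared with Rrp1). The alpha-tubulin genes alphaTub84D and alphaTub67C and the beta-tubulin genes betaTub60D and betaTub85D had no start candidate. Weaker start candidates stood at betaTub97EF (signal 99.6), gammaTub37C (75.8) and alphaTub85E (41.1). With gammaTub23C, 4 of 8 had a start candidate, near the 49.3% of all protein-coding genes. betaTub97EF also held a thresholded summit inside the gene. In the actin list only the actin-related gene had a start peak, and none of the muscle actin genes did. Act57B, Act79B and Act88F have 1 annotated start site, where 11.8% of all such genes had a peak. Act87E has 2, where the share over genes with 2 or more was 31.5%. The list is too small to tell 1 of 5, or none of the muscle actin genes, from the 17.0% of all protein-coding genes. The other tubulin genes all have 1 annotated start site. Their 1 of 8 (12.5%) was near the 11.8% of all genes with 1 start site, and 17.0% of all protein-coding genes.

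Regulators of actin assembly and turnover had a start peak in 12 of 38 (31.6%), where 17.0% of all protein-coding genes did. The strongest were at Fhos, a formin (signal 411), Vinc, the fly vinculin (407), and Hem, a subunit of the SCAR complex (259, shared with IleRS). Myosins and their regulators had one in 8 of 18 (44.4%), the largest share of the 7 lists. These were led by Rok, the kinase that phosphorylates the sqh product (432, also within 500 bp of RpS19a), RhoGEF2, an activator of Rho1 (270, with asRNA:CR44390), and didum, an unconventional myosin (246, with dpa). ERM and membrane skeleton genes had one in 4 of 10 (40.0%), led by ex (331), Mer, which encodes the fly Merlin (298), and cora (254). Microtubule motors and regulators had one in 3 of 23 (13.0%), at shot, a spectraplakin (372), tacc (258) and chb (230, with AsnS). Septins and anillin had one in 1 of 6 (16.7%), pnut (143). The microtubule and septin shares were not above the 17.0% of all protein-coding genes. None of these shares was matched for number of start sites. Of these named summits those of Hem, RhoGEF2, cora, tacc and pnut had no match within 100 bp in 1 of the 3 replicates. Where start sites of neighbouring genes share a summit, the lists do not show to which gene it belongs.

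**Figure D4:**
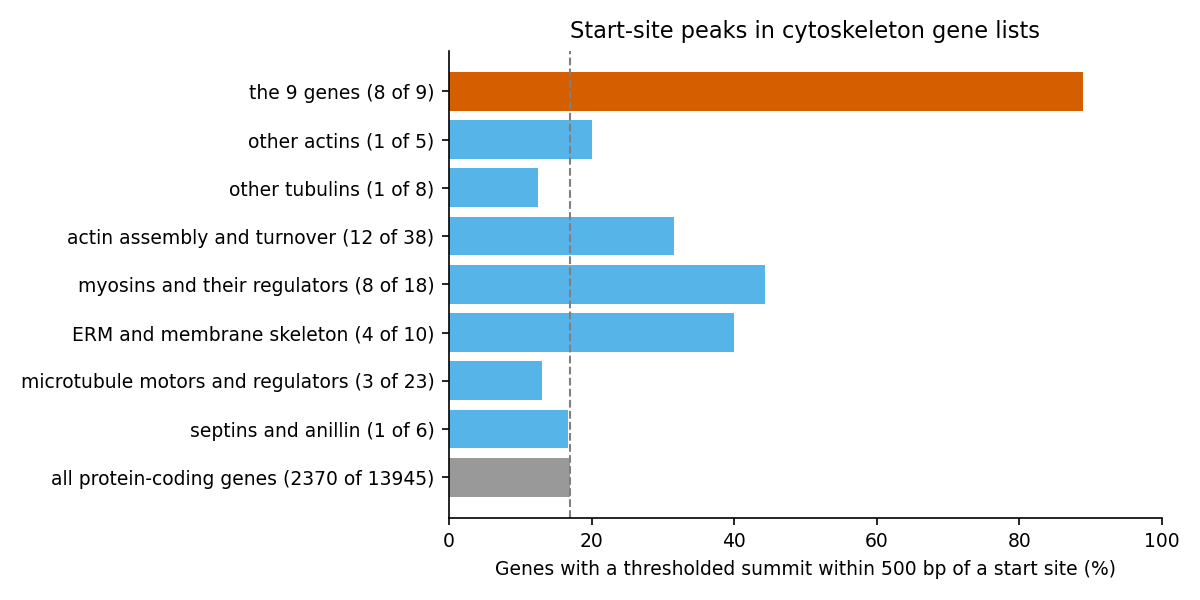
Share of genes with a thresholded summit within 500 bp of a start site (x axis, %), for the 9 genes, 7 wider cytoskeleton lists and all protein-coding genes, with counts beside each name. The dashed line is the share of all protein-coding genes, 17.0%. The 9 genes stand at 88.9%, and the wider lists run from 12.5% for other tubulins to 44.4% for myosins and their regulators.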

How the data were processed

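The authors deposited, per the labels and the descriptions beside each sample, peak lists on dm6 and dm3 for each replicate, for the pooled replicates and for a thresholded list derived from them, called against a control. Their signal per peak, as deposited, has no stated unit, so it served to rank the peaks of 1 list at a time. The −log10 q-value deposited beside it was capped at 3.67 in 61.3% of thresholded peaks and was not used to rank. The names of the deposited lists give IDR, a measure of reproducibility between replicates, as the basis of the threshold. The labels give no aligner, caller or value of that threshold. The thresholded peaks were tested to be the 3816 highest by signal.

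The dm6 lists were joined to Ensembl release 115 gene models without transposable elements (Python 3.11.15, pandas 2.3.3). Of annotated start codons, 99.8% read ATG in the genome used. Summits within 100 bp counted as shared, and start-site peaks had a summit within 500 bp of any start of the gene. The scripts were tested on simulated data. The dm3 lists were not analysed here. Depth is unknown, and 97.6% of pooled intervals are 456 bp wide, so width was read only where it differed.

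The 9 genes and the 7 wider lists (109 symbols, 1 matched through a synonym and Nherf1 unmatched) were chosen with earlier results of these data known. Text names the 9, the 3 strongest start peaks of each wider list, genes sharing those summits, and the neighbours of chic in order. Other genes and the intron and inner start sequences were added after their values were seen. No tests were made, and the alternatives tried are given at the end.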

Additional observations from a re-analysis of the deposited data

How the results depend on the processing

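Distances, lists and replicates were changed one at a time. Members with a start peak numbered 7 within 250 bp (13.5% of all genes), 8 within 1000 bp (19.7%) and 8 within 2000 bp (24.1%). The number was 7 to 9 in the strongest peaks of a replicate alone. It was 5 for the 1908 strongest thresholded peaks (9.44% of all genes) and 4 with the outermost start site only (14.7%). The first of these settings lost betaTub56D, zip and tsr, and the second lost betaTub56D, sqh, zip and Moe. The count of start summits matched in all replicates was 4 with summits shared within 50 bp, and 7 to 8 without replicate 1, 2 or 3. Those strong in all replicates numbered 4 to 6 without one replicate. With the 1908 strongest thresholded peaks, 8 summits remained in the gene bodies and 17 wider cytoskeleton genes had a start peak. Over all 9 members, the median signal of the strongest start candidate, thresholded or not, was 207 within 500 bp. It was 173 within 250 bp (8 genes, without betaTub56D) and 280 within 2000 bp (9 genes). Within 2000 bp the Act5C, tsr and Moe values (289, 430 and 283) came from summits farther out. Act5C gave 155 and Moe 188 within 250 bp. With words within 100 bp, 8 members held a word in place of 5, GAGAG 6 in place of 2 (28.6% of all thresholded start-site summits) and TATAAA 4 in place of 2 (31.8%). No paired analysis was possible because the samples form 1 group. Unknown depth limits every statement that a summit is missing from a replicate.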

Other observations

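Of the 108 genes of the wider lists, 7 (6.48%) held 3 or more thresholded summits inside the gene, where 1.70% of all protein-coding genes did. The shares were not matched for gene length or start sites, and these 7 genes have 2 (dia) to 9 (tmod) annotated starts. They were picked after their values were seen. Among them shot, a spectraplakin that links actin and microtubules, and tmod, which caps actin filament ends, held 4 each. The formin gene dia, the tropomyosin gene Tm1 and the adducin gene hts, as well as Fim and Mhcl, held 3 each. A thresholded summit 1496 bp from the nearest chic start (signal 147) lay at the start of the neighbouring gene eIF4A, a translation factor, and ranked 1036, 4523 and 9944 in the replicates.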
